A study of Mus musculus with 6 samples.

Results

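The 5 genes described here, Gm15319, Gm21119, 4930467E23Rik, Gm9495 and Gm31371, are near-identical protein-coding copies of 1 sequence on mouse chromosome 8, and they were taken by symbol from the GENCODE release 21 annotation of the GRCm38 genome, out of 55536 genes in the count files. The copies were chosen by their counts, which were known to be higher in KOStra8 than in HETStra8 testes, so the values of that comparison are given for them as a description, without a test. The counts came from whole testes of 3 KOStra8 and 3 HETStra8 mice aged 7 weeks, with 1 poly(A)+ RNA library per mouse. In KOStra8 mice the Sel1L gene is floxed on 1 chromosome and deleted on the other, and the Stra8-Cre transgene expresses Cre recombinase from a promoter of male germ cells, so that somatic cells of the testis keep the floxed copy. The HETStra8 controls are recorded for these libraries as flox/Δ siblings of the same litters without Cre. The paper uses the name HETStra8 both for flox/+ mice with Stra8-Cre and for flox/Δ mice, and no genotype is given for each mouse. Both groups thus carry a floxed allele, and whether the controls carried Cre was not resolved here.

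SEL1L is the adaptor of HRD1, a ubiquitin ligase of the endoplasmic reticulum membrane, and both take part in the degradation of misfolded proteins. The working name under which the copies were grouped, Potefam3C-like, refers to the POTE family, proteins with ankyrin repeats that were named for expression in prostate, ovary, testis and placenta. Ankyrin repeats are short helical modules that bind other proteins, and the testis is known for transcribing many young multicopy gene families of this kind. The paper lists quantitative PCR primers for a mouse gene that it names Potefam3C, and these primers were not compared with the copies here. The symbol Potefam3C itself is in neither the GENCODE annotation nor the RefSeq gene table used here, which give no function for the 5 copies, and RefSeq lists TSAP as a synonym of 4930467E23Rik.

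Of the 5 copies, 4 lie in 1 stretch of chromosome 8. In this stretch 4930467E23Rik (ENSMUSG00000096265) spans chr8:19729576-19753527 and Gm31371 (ENSMUSG00000110591) chr8:19903392-19925713, both on the plus strand. They are followed by Gm15319 (ENSMUSG00000074449) at chr8:20337664-20363210 on the minus strand and Gm21119 (ENSMUSG00000095294) at chr8:20614919-20640703 on the plus strand. Gm9495 (ENSMUSG00000107280) stands apart from them, at chr8:69427980-69453565 on the minus strand. Next to it lies Gm7697, a sixth protein-coding gene of the same kind that was not among the 5, at chr8:69481346-69522976 on the minus strand. Each copy has 1 annotated transcript. Those of Gm15319, Gm21119, 4930467E23Rik and Gm9495 have 10 exons, lengths of 2522, 2522, 2514 and 2512 bases and a coding part of 1050 bases, or 350 codons. The transcript of Gm31371 has 9 exons and 2088 bases, lacks the first exon of the others, and begins inside a coding part of 793 bases for which no start codon is annotated.

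The transcripts are shown first where they differ, because these bases decide which reads can be given to 1 copy. Among the 5 aligned transcripts, 59 columns differ, of which 23 lie in the coding part and 29 after it. Of the 23 coding columns, 9 are in exon 1 and 4 in exon 3. The following 80 coding bases of exon 1, from GENCODE transcripts and written along the transcript, are the stretch of exon 1 with the most differences, and capitals mark the 7 columns at which the 5 genes shown differ. Gm31371 has no such exon.
Gm15319, chr8:20362944-20363023: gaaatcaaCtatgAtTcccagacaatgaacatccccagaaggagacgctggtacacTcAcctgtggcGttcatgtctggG
Gm21119, chr8:20615106-20615185: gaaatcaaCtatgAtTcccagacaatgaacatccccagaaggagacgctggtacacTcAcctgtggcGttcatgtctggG
4930467E23Rik, chr8:19729755-19729834: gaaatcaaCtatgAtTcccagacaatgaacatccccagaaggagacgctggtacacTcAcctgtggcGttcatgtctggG
Gm9495, chr8:69453308-69453387: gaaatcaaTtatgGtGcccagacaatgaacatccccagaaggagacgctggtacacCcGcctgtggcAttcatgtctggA
Gm7697, chr8:69522724-69522803: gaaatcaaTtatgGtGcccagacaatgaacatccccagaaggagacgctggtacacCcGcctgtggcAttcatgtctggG

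At 6 of the 7 marked columns Gm9495 and Gm7697 share a base that none of the other copies has, whereas Gm15319, Gm21119 and 4930467E23Rik are the same throughout. The next 80 coding bases come from exon 3 (exon 2 of Gm31371), the stretch with the most differences among those that all 6 genes hold, and capitals mark its 4 differing columns.
Gm15319, chr8:20359010-20359089: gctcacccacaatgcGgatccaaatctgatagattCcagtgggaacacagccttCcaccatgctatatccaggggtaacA
Gm21119, chr8:20619042-20619121: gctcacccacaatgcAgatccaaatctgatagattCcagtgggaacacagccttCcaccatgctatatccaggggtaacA
4930467E23Rik, chr8:19733686-19733765: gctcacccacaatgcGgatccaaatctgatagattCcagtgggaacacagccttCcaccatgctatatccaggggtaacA
Gm9495, chr8:69449376-69449455: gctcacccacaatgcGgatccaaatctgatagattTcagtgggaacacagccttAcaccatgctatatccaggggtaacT
Gm31371, chr8:19904375-19904454: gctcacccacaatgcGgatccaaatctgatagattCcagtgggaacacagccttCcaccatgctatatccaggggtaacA
Gm7697, chr8:69518785-69518864: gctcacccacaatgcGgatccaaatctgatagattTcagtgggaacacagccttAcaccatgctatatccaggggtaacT

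In exon 3, too, Gm9495 and Gm7697 share 3 of the 4 marked bases with each other alone, and the remaining marked base sets Gm21119 apart. In the whole alignment the number of columns with a base held by Gm9495 and Gm7697 alone was 26, of which 13 were coding. Gm9495 and Gm7697 differed from each other at 18 of 2506 aligned bases (99.3% identity) and at 2 of 1050 coding bases. Gm9495 differed from Gm15319 at 36 of 2512 bases (98.6% identity) and from Gm21119 and 4930467E23Rik at 40 each. Within the other stretch of the chromosome, Gm15319 differed from Gm21119 at 10 of 2522 bases (99.6% identity), from 4930467E23Rik at 13 of 2514 bases and from Gm31371 at 16 of 2087 bases. Over the whole transcript, the 6 genes thus fall into the same groups as by position. The part after the coding sequence does not show this grouping. There Gm9495 differed from Gm7697 at 15 of 1292 bases and from Gm15319 at 13 of 1293.

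**Figure D1:**
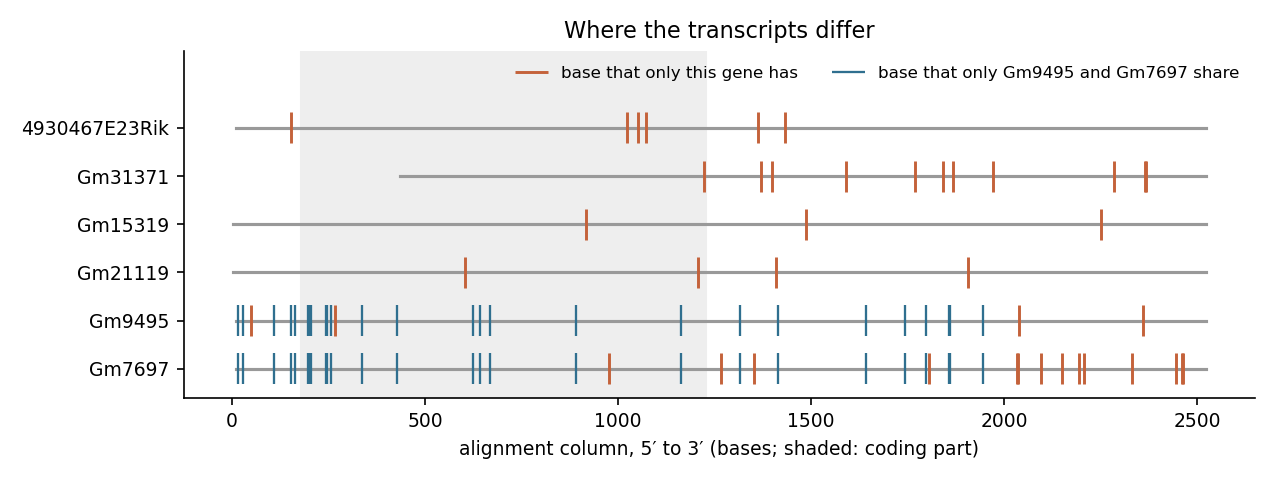
Aligned transcripts of the 5 copies and Gm7697, with the alignment column in bases from 5′ to 3′ on the horizontal axis, 1 line per gene and the coding part shaded. Orange ticks are bases that only that gene has (3 in Gm15319, 4 in Gm21119, 6 in 4930467E23Rik, 4 in Gm9495, 11 in Gm31371 and 14 in Gm7697), and blue ticks are the 26 bases that only Gm9495 and Gm7697 share.

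The RefSeq table (GRCm38.p6) holds promoters of 4 of the 5 copies, as 250 bases before to 50 bases after the start. Those of Gm15319, Gm21119 and 4930467E23Rik were identical over all 300 bases, and the RefSeq starts lay within 8 bases of the GENCODE starts. Gm9495 has 2 entries whose starts lie 483 and 480 bases upstream of its GENCODE start, so its window covers other sequence and cannot be compared base by base with that of the other 3. The promoters are printed 5′ to 3′ on the strand of the gene, since they show that 3 of the copies are also identical around their starts, and capitals mark motif matches.
Gm15319, chr8:20363153-20363452, also the sequence of Gm21119 and 4930467E23Rik: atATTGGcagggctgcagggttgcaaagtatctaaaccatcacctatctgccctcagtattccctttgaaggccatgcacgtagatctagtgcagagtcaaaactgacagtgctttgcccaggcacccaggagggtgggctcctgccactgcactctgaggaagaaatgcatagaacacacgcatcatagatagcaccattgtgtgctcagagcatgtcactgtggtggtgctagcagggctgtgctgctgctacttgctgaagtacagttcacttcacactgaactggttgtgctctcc
Gm9495, chr8:69453999-69454298: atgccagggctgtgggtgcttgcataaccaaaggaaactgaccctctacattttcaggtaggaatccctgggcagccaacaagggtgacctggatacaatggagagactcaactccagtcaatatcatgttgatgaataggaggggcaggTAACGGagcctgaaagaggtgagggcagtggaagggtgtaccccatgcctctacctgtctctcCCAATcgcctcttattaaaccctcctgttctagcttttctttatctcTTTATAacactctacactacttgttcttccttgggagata

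The motifs searched on both strands were the TATA box (TATAAA), the CCAAT box (CCAAT), the GC box bound by Sp1 (GGGCGG), the cyclic AMP response element (TGACGTCA), a core of MYB sites (TAACNG) and a core of RFX sites (GTTGCC), and no matches overlapped here. In the promoter shared by 3 copies the only match was CCAAT, on the reverse strand, at position -248 from the RefSeq start. The window of Gm9495 held TATAAA on the reverse strand at 11 bases after the start, CCAAT at -37 and TAACNG at -100. CCAAT is in 37.4% of the 32851 promoters of the table, TATAAA in 13.6% and TAACNG in 23.3%, so each match is of a common kind. The GC box, the cyclic AMP response element and the RFX core, held by 35.7%, 1.79% and 12.5% of promoters, had no match in these windows.

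How far a read can tell the copies apart was measured on the annotated transcripts. In Gm15319, 6.79% of all stretches of 50 bases were found in no other annotated gene. The share was 7.93% in Gm21119, 11.6% in 4930467E23Rik, 12.0% in Gm9495 and 22.9% in Gm31371. At 150 bases, the length of the reads, the shares were 31.0% in Gm15319, 21.9% in Gm21119, 29.5% in 4930467E23Rik, 40.7% in Gm9495 and 58.6% in Gm31371. In each copy but Gm31371, most stretches of the read length were thus also found in another gene. Compared with the other 4 copies alone, 81.0% of the stretches of 150 bases of Gm9495 were found in it only, and its neighbour Gm7697 holds 72.3% of its own stretches of 50 bases in common with Gm9495. The longest coding run that is identical in all 5 copies had 222 bases and spanned exons 3 to 5 (2 to 4 in Gm31371). A read that fits several copies can be dropped, divided or given to 1 of them, and what the counting did with such reads, and its strand setting, is not given in the sources used here. The count of a copy therefore holds only the reads that the counting gave to it.

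**Figure D2:**
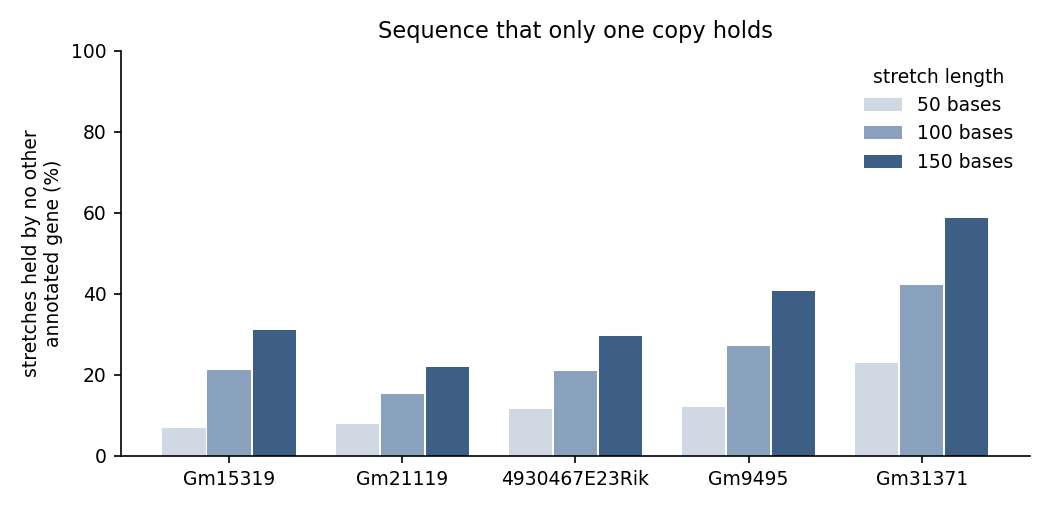
Percent of each transcript's stretches of 50, 100 and 150 bases that no other annotated gene holds (vertical axis), for the 5 copies (horizontal axis). Gm21119 has the lowest share at 150 bases, 21.9%, and Gm31371 the highest, 58.6%.

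The libraries held 28875108 to 36526695 counts, and levels are given as CPM, in which counts are divided by the library total after TMM, a scaling that makes libraries comparable. For Sel1l, the targeted gene, 1549, 1603 and 1413 counts in the HETStra8 mice stood against 846, 636 and 741 in the KOStra8 mice, a log2 fold change of -1.07 (SE 0.104, edgeR quasi-likelihood test, adjusted p = 0.00061), so the labels and the targeted gene go together. After the filter on low counts, 21465 genes were tested, including all 5 copies, and their log2 fold changes of KOStra8 over HETStra8 had a median of -0.01, with 48.5% of them above 0.

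A sum over the 5 copies does not depend on how reads were divided among them. It does depend on whether reads fitting several copies were dropped or counted repeatedly, and on reads shared with other genes. The summed counts were 566, 424 and 694 for HETStra8 (mice 1 to 3 in this order, as throughout) and 1043, 730 and 1220 for KOStra8. As levels, these were 18.0, 12.6 and 20.8 CPM in HETStra8, with a mean of 17.1 ± 4.18 (SD, n = 3). In KOStra8 the summed level was 29.9, 25.2 and 33.4 CPM, with a mean of 29.5 ± 4.11 (SD, n = 3). All 3 KOStra8 mice lay above all 3 HETStra8 mice, and HETStra8 mouse 2 was the lowest of the 6. The log2 fold change of the sum was 0.78 (SE 0.172), or 1.72-fold. In RNA of a whole testis, a difference in the number of cells of a type and a difference in RNA per cell cannot be told apart.

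Gm9495 had the largest log2 fold change of the 5 with all mice, although without HETStra8 mouse 3 it was at 1.29 and Gm31371 at 1.42. Its counts were 119, 64 and 92 in HETStra8 and 266, 183 and 244 in KOStra8, or 2.81 ± 0.942 and 6.87 ± 0.667 CPM (SD, n = 3). The groups did not overlap, and the log2 fold change was 1.29 (SE 0.236), or 2.44-fold. Gm31371, the shorter copy without the first exon, was counted 62, 34 and 97 times in HETStra8 and 133, 104 and 162 times in KOStra8. Its level was 1.96 ± 0.949 and 3.94 ± 0.438 CPM (SD, n = 3), again without overlap, and its log2 fold change was 1.01 (SE 0.317), or 2.01-fold.

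Gm15319 and Gm21119, which differ at the fewest bases, had closely similar fold changes. The next closest pair by sequence, Gm21119 and 4930467E23Rik, differed at 11 of 2514 bases and had log2 fold changes of 0.71 and 0.39. Gm15319 had 131, 104 and 157 counts in HETStra8 and 211, 162 and 312 in KOStra8, or 3.99 ± 0.824 and 6.72 ± 1.59 CPM, with a log2 fold change of 0.76 (SE 0.220). Gm21119 had 74, 101 and 137 counts in HETStra8 and 185, 123 and 215 in KOStra8, or 3.15 ± 0.888 and 5.14 ± 0.829 CPM, with a log2 fold change of 0.71 (SE 0.236). The groups did not overlap for either gene, although KOStra8 mouse 2, with 4.25 CPM of Gm21119, lay just above HETStra8 mouse 3 with 4.11 CPM.

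The smallest difference of the 5 was that of 4930467E23Rik. Its counts were 180, 121 and 211 in HETStra8 and 248, 158 and 287 in KOStra8, or 5.21 ± 1.44 and 6.80 ± 1.23 CPM. Here the groups overlapped, since KOStra8 mouse 2 at 5.45 CPM was below HETStra8 mice 1 and 3 at 5.72 and 6.33 CPM. The log2 fold change was 0.39 (SE 0.222), and it was 0.18 when HETStra8 mouse 2, the lowest, was left out.

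**Figure D3:**
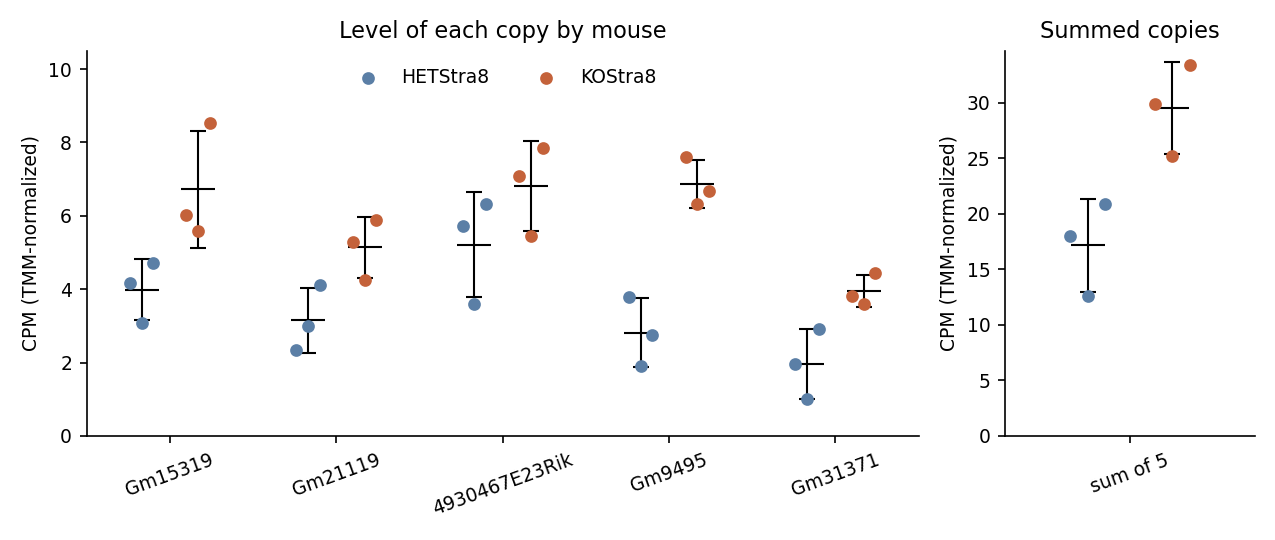
Level in CPM (vertical axes, TMM-normalized) of each copy (left) and of the summed copies (right), with 1 point per mouse, blue for HETStra8 and orange for KOStra8, and bars for the mean ± SD of 3 mice. The groups are separate for Gm15319, Gm21119, Gm9495, Gm31371 and the sum, and overlap for 4930467E23Rik.

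Across the 5 copies the log2 fold change was above 0 in 5 and had a median of 0.76. In 4 of the 5 all KOStra8 mice lay above all HETStra8 mice, as did 9.33% of all genes tested. A fold change over 2 was seen in 2 of the 5, Gm9495 and Gm31371, and in 1.39% of all genes tested, in the higher direction and at any p. Since the copies were listed from this same comparison and share sequence, nothing is read from these counts.

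The division of the counts among the copies was compared as shares of the sum. 4930467E23Rik took 31.8%, 28.5% and 30.4% of the summed counts in HETStra8 and 23.8%, 21.6% and 23.5% in KOStra8, so its share was lower in each KOStra8 mouse than in each HETStra8 mouse. The exact 95% binomial interval (Clopper-Pearson) in HETStra8 mouse 2, the nearest of the 3, was 24.3% to 33.1%, which overlapped the interval of 21.2% to 26.5% in KOStra8 mouse 1. These intervals cover counting error only. Gm9495 took 21.02%, 15.1% and 13.3% in HETStra8 and 25.5%, 25.1% and 20% in KOStra8, where the lowest KOStra8 share was below the highest HETStra8 share. The shares of Gm15319, 22.6% to 24.5% in HETStra8 and 20.2% to 25.6% in KOStra8, overlapped, as did those of Gm21119 and Gm31371.

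**Figure D4:**
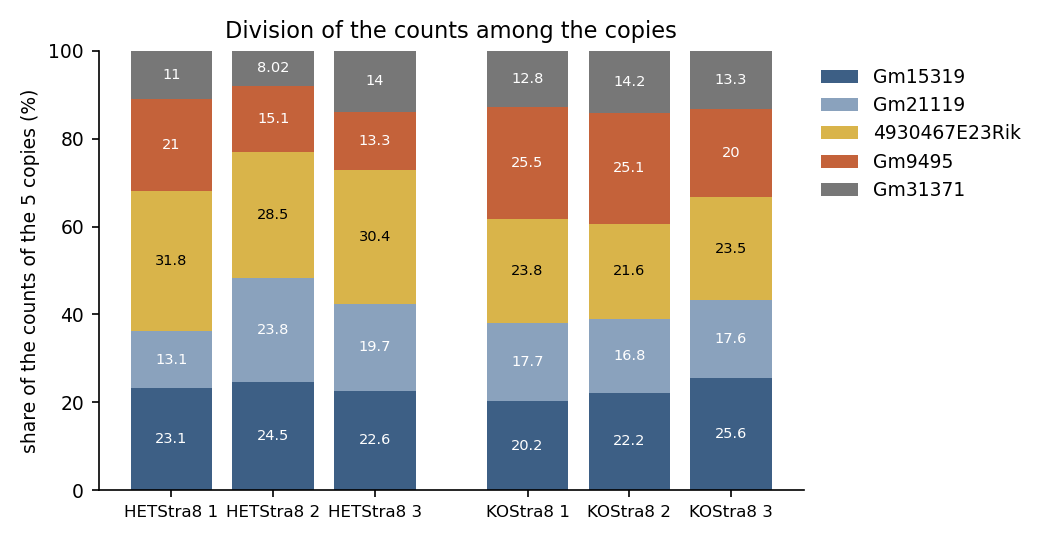
Percent of the summed counts of the 5 copies that was counted on each copy (vertical axis, stacked to the whole), with 1 bar per mouse. The share of 4930467E23Rik is 28.5% to 31.8% in HETStra8 mice and 21.6% to 23.8% in KOStra8 mice.

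Levels of the copies can be compared with each other only per length. Per kilobase of transcript, 4930467E23Rik was at 2.07 ± 0.571 CPM in HETStra8 (SD, n = 3), followed by Gm15319 at 1.58 ± 0.327, Gm21119 at 1.25 ± 0.352, Gm9495 at 1.12 ± 0.375 and Gm31371 at 0.940 ± 0.455. The ranges of mean ± SD of neighbours in this order overlapped at each step. In KOStra8, Gm9495, 4930467E23Rik and Gm15319 lay together at 2.73 ± 0.265, 2.705 ± 0.488 and 2.67 ± 0.630 CPM per kilobase, with lower means for Gm21119 at 2.04 ± 0.329 and Gm31371 at 1.89 ± 0.210. Here, too, the ranges of neighbours in this order overlapped at each step. A second scale divides by the length that no other gene shares at 150 bases, for the case that reads fitting several genes were dropped. It treats each read alone, whereas the libraries were read in pairs, so it only approximates the length over which a pair could be placed. On it the level in KOStra8 was 9.88 ± 1.595 CPM per kilobase for Gm21119, 9.74 ± 1.76 for 4930467E23Rik, 9.13 ± 2.16 for Gm15319, 7.14 ± 0.693 for Gm9495 and 3.47 ± 0.386 for Gm31371. Gm9495, which had the highest mean per kilobase of transcript, thus had a lower mean than 3 other copies on this scale, and Gm21119 had the highest mean. The ranges of mean ± SD of Gm9495 and Gm15319 overlapped. In HETStra8 the same scale gave 7.47 ± 2.06 for 4930467E23Rik, 6.06 ± 1.71 for Gm21119, 5.42 ± 1.12 for Gm15319, 2.92 ± 0.980 for Gm9495 and 1.73 ± 0.835 for Gm31371.

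A trend with base composition ran through the genes of this comparison and differed between the groups in the same direction as the copies. Over the genes tested, the log2 fold change had a Spearman correlation of -0.46 with GC content, a description across genes that share the same 6 libraries. The copies have a GC content of 37.5% to 38.8%, against a median of 48.8% over the genes tested. The trend fitted in each library for transcripts like the copies was -0.31, -0.17 and 0.04 (log2) in HETStra8 and 0.12, 0.12 and 0.20 in KOStra8, so it was higher in each KOStra8 mouse. Within HETStra8 the trend was lowest in mouse 1, whereas the summed copies were lowest in mouse 2. With offsets that take out GC content and length, the sum had a log2 fold change of 0.50 (SE 0.153) instead of 0.78. The values of the copies became 0.99 for Gm9495, 0.69 for Gm31371, 0.48 for Gm15319, 0.45 for Gm21119 and 0.11 for 4930467E23Rik, in the same order as before.

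With the trend subtracted from each mouse's level, the log2 CPM of the sum was 4.48, 3.83 and 4.35 in HETStra8 and 4.78, 4.54 and 4.87 in KOStra8, and the groups did not overlap. They were likewise separate for Gm9495, Gm31371 and Gm15319, while Gm21119 and 4930467E23Rik overlapped. Both the overlap of Gm21119, with 2.00 in KOStra8 mouse 2 and 2.02 in HETStra8 mouse 3, and the separation of Gm15319, with 2.39 in KOStra8 mouse 2 and 2.37 in HETStra8 mouse 1, were narrow.

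**Figure D5:**
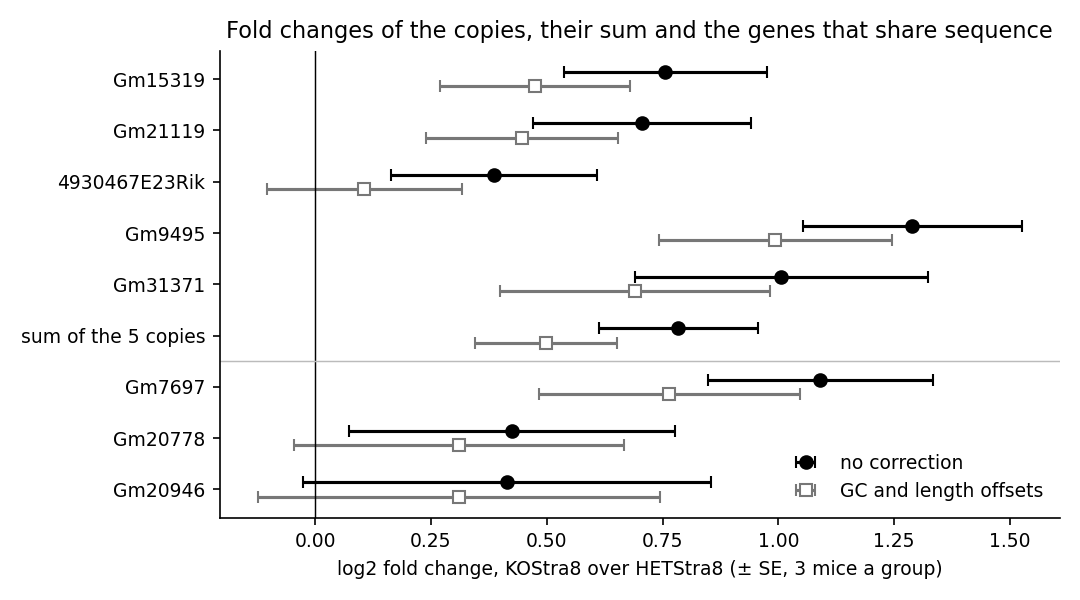
Log2 fold change of KOStra8 over HETStra8 (horizontal axis) with its SE for the 5 copies, their sum and the 3 genes that share sequence with them, without correction (filled circles) and with offsets for GC content and transcript length (open squares). The sum is at 0.78 without and 0.50 with the offsets, and 4930467E23Rik at 0.39 and 0.11.

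A further 3 annotated genes hold at least 10% of their own stretches of 50 bases in common with a copy, and reads could have passed between them and the copies. They were not used to list the copies and were tested in the edgeR fit across all genes. Their counts may hold reads of copies that were chosen as higher in KOStra8, so these tests are not independent of that choice. Gm7697, the neighbour of Gm9495, shared 73.6% of its stretches with the copies, and its counts were 166, 97 and 96 in HETStra8 and 272, 189 and 334 in KOStra8. Its level was 3.68 ± 1.38 CPM in HETStra8 and 7.81 ± 1.31 CPM in KOStra8 (SD, n = 3), and all 3 KOStra8 mice lay above all 3 HETStra8 mice. The log2 fold change of 1.09 (SE 0.243) did not pass both cutoffs (over 2-fold, adjusted p below 0.01) in edgeR (adjusted p = 0.128) and passed them in DESeq2 (adjusted p = 0.0029). With the offsets for GC content and length its log2 fold change was 0.76, with an adjusted p of 0.529 in edgeR. The adjusted p of Gm7697 lay between 5.9e-05 and 0.557 over its 14 settings.

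The other two are unprocessed pseudogenes with few counts, in the same stretch as 4 of the copies. Gm20778 (chr8:20035108-20040320) shared 86.7% of its stretches and had 33, 56 and 37 counts in HETStra8 and 67, 30 and 79 in KOStra8, a log2 fold change of 0.43 (SE 0.353, edgeR adjusted p = 0.658). Gm20946 (chr8:20828353-20833219) shared 87.9% and had 12, 26 and 27 counts in HETStra8 and 30, 20 and 39 in KOStra8, a log2 fold change of 0.41 (SE 0.440, edgeR adjusted p = 0.739). Their groups overlapped. Of the 3 sharing genes, 0 passed the cutoffs in edgeR and 1 in DESeq2, and 1, Gm7697, had an unadjusted p under 0.05 in each tool. Over all genes tested, 0.00932% passed the cutoffs in edgeR in either direction and 0.00466% in the higher direction, and 0.0491% of the genes with an adjusted p in DESeq2 passed them. An unadjusted p under 0.05 in either direction was found for 12.3% of all genes in edgeR and 7.23% in DESeq2. Added to the sum of the 5 copies, the 3 genes moved its log2 fold change from 0.78 to 0.81.

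The genes around the copies were read from the same fit. Within 500 kb of the start of a copy lie 85 other genes, of which 35 were tested, the 3 sharing genes among them, and 15 of these had a log2 fold change above 0, with a median of -0.04. In edgeR 0 of the 35 passed the cutoffs and 8 had an unadjusted p under 0.05, as did 12.3% of all genes tested. These 8 were among the 23 genes tested around Gm9495. DESeq2 passed 1 of the 35, Gm7697, against 0.0491% of all genes with an adjusted p. It likewise had 8 of the 35 at an unadjusted p under 0.05, against 7.23% of all genes. At that level 4 of the 35 were higher in KOStra8 in edgeR, as were 7.13% of all genes, and Gm7697 is counted among them. In 4 of the 35, Gm7697 among them, all KOStra8 mice lay above all HETStra8 mice (9.33% of all genes). In 2 they lay below (8.43% of all genes), and all 6 of these genes lay around Gm9495. Around the other 4 copies, 12 genes were tested, with a median of 0.03, and in 0 of them were the groups separate.

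Genes whose pattern over the 6 mice was most like that of the sum lay on other chromosomes. Likeness was measured as the root mean square difference of log2 CPM, each centred on its own mean, among 21455 genes, where the median over genes was 0.522. A gene that did not vary over the mice would be at 0.470. The closest of so many genes over 6 mice are alike by selection, so nothing is read from this list. Among the closest were Hc, which encodes complement component C5, at 0.0768, the unclassified transcript Gm42547 at 0.0850, the long noncoding RNA Gm20484 at 0.0874 and the long noncoding RNA Gm26651 at 0.0965. Gm42547 reached 3.01 CPM in KOStra8 mouse 3, the highest value of these 4 genes in any mouse.

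The cell makeup of the testes was read from marker lists beside the copies. The summed level of 5 Sertoli cell markers was lower in each KOStra8 mouse, 199 to 209 CPM against 214 to 234 CPM in HETStra8, and 0 of the 5 had a log2 fold change above 0 (median -0.14). Of all single genes tested, 8.43% lay below in this way, and the marker levels were not corrected for GC content. The sums of the other 9 lists overlapped between the groups, and markers of germ cells from spermatogonia to elongating spermatids were all counted. Of the other somatic lists, Leydig cells had 0 of 5 markers above 0 (median -0.30), peritubular myoid cells 0 of 5 (median -0.21) and macrophages 1 of 6 (median -0.23). The Leydig markers summed to 478 to 719 CPM in HETStra8 and 400 to 516 CPM in KOStra8. Among the germ cell lists, 5 leptotene and zygotene markers summed to 168, 198 and 290 CPM in HETStra8 and to 262, 286 and 316 CPM in KOStra8. Of these, Sycp3 and Hormad1 had log2 fold changes of 0.49 and 0.44, while Dmc1, Meiob and Prdm9 were at 0.03, 0.05 and -0.15. Spermatogonial markers summed to 86.8 to 94.0 CPM in HETStra8 and 82.2 to 91.4 CPM in KOStra8. The 6 pachytene markers summed to 3310 to 3670 CPM in HETStra8 and 3285 to 3433 CPM in KOStra8, and the 5 round spermatid markers to 710 to 795 and 714 to 779 CPM. Sums over 5 epididymis markers, of which 1, Lcn8, was at 0 in all mice, were 4.08 to 13.1 CPM in HETStra8 and 2.83 to 6.27 CPM in KOStra8. The part of cell makeup in the level of the copies was not tested.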

How the data were processed

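The authors deposited 1 table of raw read counts per mouse, with 55536 Ensembl genes and no normalization. The paper describes poly(A)+ directional libraries read in pairs of 150 bases. The submitters' processing notes name, without role or order, FastQC, Trimmomatic, STAR 2.7.1a, Picard 2.20.4, StringTie 2.0.4, featureCounts 1.6.0, HTSeq and ChIPseeker, and the builds mm10 and GRCm38. The strand setting and the treatment of reads with several matches are not given in the sources used here.

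All 55536 identifiers matched GENCODE release 21. The fit used edgeR 4.0.16 in R 4.3.3 (filterByExpr, TMM, robust quasi-likelihood fit, genotype as the only term, Benjamini-Hochberg adjustment over 21465 genes), and genes over 2-fold with an adjusted p below 0.01 passed the cutoffs, as in the paper. At these cutoffs the paper reports many more genes in each direction than the 1 higher and 1 lower gene of this fit. It does not name the tool of its comparison, and the cause of the difference was not tested. Fold changes of the sum come from the same fit with the 5 copies replaced by their sum. The common biological coefficient of variation was 0.160. The members and lists were chosen with earlier results of these data known, so the copies received no test. Besides the copies, the genes named are Sel1l, the genes sharing at least 10% of their 50-base sequences with a copy, and the 5 most alike in pattern, of which 1 is not reported here. Markers named come from the cell type lists. Gm5373, Gm35256, Gm1758, Gm43263 and Yjefn3 fall outside this rule and were named after their values were seen. The mice were separate animals.

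Shared sequence was counted on GENCODE transcripts, and transcripts were aligned with MAFFT 7.526. The shares found in no other gene took both strands into account. Comparisons among the 5 copies alone and the list of sharing genes used the same strand only. Alternatives were DESeq2 1.42.0 and its size factors, library totals, other filters, the replicate number as a block, GC and length offsets (loess, span 0.3, 8 tested genes without a GC value left uncorrected), an adjusted p of 0.05, other stretch lengths and leaving out each mouse. Added after seeing the data were the sum with the sharing genes, a search for relatives with BLAST 2.17.0 (e-value at most 1e-10) and the levels with the GC trend subtracted.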

Additional observations from a re-analysis of the deposited data

How the results depend on the processing

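The log2 fold changes of the copies and their sum were above 0 in all 85 values from alternatives. These signs are no separate evidence, because the copies were chosen as higher in KOStra8 and each alternative used the same libraries. No value moved by as much as the SD between mice, which is a wide measure for a difference of means. The GC and length offsets moved the sum from 0.78 (SE 0.172) to 0.50. They moved 4930467E23Rik from 0.39 (SE 0.222) to 0.11. Both shifts were larger than the SE. For the sum, the values ran from 0.50 with GC and length offsets to 0.81 with the sharing genes added, and from 0.60 to 0.96 with 1 mouse left out. With 1 mouse left out, the values ran from 0.18 to 0.56 for 4930467E23Rik, 0.54 to 0.90 for Gm15319, 0.53 to 0.95 for Gm21119, 0.69 to 1.42 for Gm31371 and 1.07 to 1.56 for Gm9495.

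The labels do not say whether the replicate numbers pair the mice, for instance by litter. The deviations of same-numbered mice correlated at -0.06, -0.05 and 0.11. These values cannot decide it, since each deviation is taken from a mean of only 3 mice. With the replicate block the log2 fold change of the sum was 0.80 (SE 0.117, against 0.172 without the block). With the block and the GC and length offsets it was 0.51. For Gm7697 the edgeR adjusted p was 0.0291 with the block and 0.128 without it. Over all genes 4 genes passed the cutoffs upward with the block instead of 1.

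Counts past the cutoffs depended on the settings more. Of the 3 sharing genes, 1 passed without the filter and 1 in DESeq2, with 0 to 1 when a mouse was left out (the 1 without HETStra8 mouse 1), against 0 in edgeR. Of the genes near the copies, 2 passed without the filter (Yjefn3 and Gm7697) and 1 in DESeq2, with 0 to 1 when a mouse was left out (again without HETStra8 mouse 1). Over all genes, 22 were higher without the filter, 5 in DESeq2 and 4 at an adjusted p of 0.05 without a cutoff on the fold. Leaving out a mouse gave 1 to 42 higher genes, the 42 without HETStra8 mouse 3, and 0 to 4 lower genes, against 1 and 1. Without the filter 17 were lower. The cause of these changes was not tested.

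At stretches of 100 and 150 bases, the share of a copy found in no other gene was 21.05% and 31.0% in Gm15319, 15.3% and 21.9% in Gm21119, 20.99% and 29.5% in 4930467E23Rik, 27.1% and 40.7% in Gm9495, and 42.2% and 58.6% in Gm31371. A search by BLAST found 6 related genes instead of 3. The planned comparison with the whole genome was not run, because a genome sequence was not used here.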

Other observations

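More distant relatives of the copies were counted in the same libraries. They were found by the added BLAST search and are named although they share less than 10% of their stretches of 50 bases with a copy. Gm5373, a transcribed pseudogene at chr8:71824641-71857281 that resembles the copies over 1052 bases at 91.5% identity, was at 29.1, 24.6 and 38.8 CPM in HETStra8 and 45.5, 40.8 and 41.8 CPM in KOStra8. All 3 KOStra8 mice lay above all 3 HETStra8 mice, as they did for 9.33% of all genes tested. The log2 fold change was 0.47 (SE 0.142, edgeR adjusted p = 0.243), and with the offsets for GC content and length the value was 0.22. Gm35256, a long noncoding RNA at chr8:71026792-71126576 with 372 bases at 97.8% identity, was at 8.49, 7.57 and 9.08 CPM in HETStra8 and 15.8, 11.3 and 12.5 CPM in KOStra8, again without overlap, with a log2 fold change of 0.66 (SE 0.157, edgeR adjusted p = 0.136) and of 0.51 with the offsets. Gm1758, an unprocessed pseudogene on chromosome 16 with 411 bases at 71.0% identity, was at 2.64, 3.00 and 3.21 CPM in HETStra8 and 4.15, 4.11 and 3.72 CPM in KOStra8. Its groups did not overlap either, and its log2 fold change was 0.44 (SE 0.209, edgeR adjusted p = 0.417). Over 14 alternative settings the edgeR adjusted p ran from 0.00125 to 0.692 for Gm5373 and from 0.0039 to 0.501 for Gm35256. Both were lowest without the filter. Between Gm9495 and Gm7697 lies Gm43263, chosen after its value was seen, with a log2 fold change of 0.64 (SE 0.208, edgeR adjusted p = 0.257).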
